A study of Mus musculus with 11 samples.

Results

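The genes described here are 10 receptors, regulators and markers of regulatory T cells and of T cell checkpoints: Foxp3, Ctla4, Il2ra, Ikzf2, Icos, Pdcd1, Lag3, Tigit, Tnfrsf4 and Tnfrsf18. They were chosen by name, with earlier results of these data known, among the 29809 gene rows with an identity, and all 10 were found. They were followed in the 4550 cells that the authors named T cells, of 55603 cells in the libraries used. The study profiled single cells of mouse colonic mucosa in colitis by 3′ sequencing with UMIs, short random tags that let each captured RNA molecule be counted once. There were 11 libraries, 1 per group, each made from a pool of 3 to 8 mice. The uninjured library came from wild-type mice of about 2 months. The 9 DSS libraries came from wild-type mice of the same age that were given 3% dextran sulfate sodium, an agent that injures the colonic epithelium, for 6 days, and were taken 1 pool a day between day 6 and day 23 from its start: days 6, 9, 12, 16, 19 and 23 in one run and days 7, 11 and 18 in another. The Il10-/- library came from untreated mice of about 10 months that lack Il10 and had colitis, so genotype and age cannot be told apart there. By the authors' cell table, days 7, 11 and 18 are batch C, from 3 mice each, and the other 8 libraries are batch A, from 8 mice each. Batch C was run fresh, and batch A was frozen before the run. Because each group is 1 pool, p-values over days or libraries measure the spread between pools, not between mice.

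Regulatory T cells restrain other lymphocytes and are set up by the transcription factor Foxp3, which acts with Helios, the product of Ikzf2. They take up interleukin-2 through a receptor whose alpha chain is Il2ra, and they hold the inhibitory receptor Ctla4, which competes with the costimulatory receptor Cd28 for Cd80 and Cd86. The colon holds many of them, and several of the genes are shared with other activated lymphocytes: Icos, Tnfrsf4 (OX40) and Tnfrsf18 (GITR) are costimulatory receptors, and Pdcd1 (PD-1), Lag3 and Tigit are inhibitory receptors.

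T cells numbered 38 in the uninjured library, 58 on day 6, 267 to 491 on the other DSS days and 1318 in the Il10-/- library. Their median UMI count was 4644 to 5734 for batch C but 1115 to 2402 for the frozen libraries, and their summed counts ran from 56247 to 3420163 per library. The 7 T cell markers were all detected in each library, but the class was mixed. Of the authors' 3 clusters in it, cluster 25 had Ncr1 in 11.1% of cells against 0.309% in cluster 20, and Cd3e in 28.0% against 66.4%; Ncr1 is a receptor of natural killer cells and innate lymphocytes. Cluster 25 made up 65.8% of the uninjured and 69.0% of the day 6 T cells, against 25.5% to 44.0% elsewhere. A Cd3d, Cd3e or Cd3g UMI was found in 46.6% of day 6 T cells, 54.8% on day 7, 57.9% for the uninjured mice and 72.7% to 79.4% elsewhere. Neutrophil markers, 4 genes, summed to between 230.4 (day 23) and 15313 (day 11) CPM in the DSS T cells, where CPM scales a count to the same T cell total in each library. Of 54976 barcodes, 611 occurred in more than 1 library, 6 of them among T cells.

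Promoter letters are shown for 5 genes because Foxp3 marks the cells compared here and the other 4 rose in them in each library without overlap. The windows are the 250 bases before a RefSeq start site (GRCm38.p6), written 5′ to 3′ on the gene's own strand, which was the plus strand for all 5. Capitals mark matches on either strand to an NFAT core (TGGAAA), a STAT site (TTCNNNGAA) or a kappaB site, motifs of factors active downstream of the antigen receptor and interleukin-2. The windows are chrX:7580233-7580482 for the Foxp3 start used here, chr1:60908775-60909024 for Ctla4, chr2:11642542-11642791 for Il2ra, chr4:156013445-156013694 for Tnfrsf4 and chr4:156026072-156026321 for Tnfrsf18.
Foxp3: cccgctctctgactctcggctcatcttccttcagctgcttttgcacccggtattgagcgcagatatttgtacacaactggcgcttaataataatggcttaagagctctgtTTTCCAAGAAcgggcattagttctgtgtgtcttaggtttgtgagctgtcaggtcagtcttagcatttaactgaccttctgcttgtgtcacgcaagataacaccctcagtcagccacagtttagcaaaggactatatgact
Ctla4: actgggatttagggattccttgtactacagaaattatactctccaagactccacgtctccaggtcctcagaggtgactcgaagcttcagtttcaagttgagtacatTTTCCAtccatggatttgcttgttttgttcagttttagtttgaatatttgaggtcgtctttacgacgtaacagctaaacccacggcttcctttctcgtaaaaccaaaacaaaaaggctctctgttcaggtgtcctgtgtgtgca
Il2ra: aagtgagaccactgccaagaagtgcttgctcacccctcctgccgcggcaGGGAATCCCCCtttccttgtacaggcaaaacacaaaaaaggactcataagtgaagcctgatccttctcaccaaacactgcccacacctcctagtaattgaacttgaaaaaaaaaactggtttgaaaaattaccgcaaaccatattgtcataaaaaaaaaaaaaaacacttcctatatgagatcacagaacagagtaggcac
Tnfrsf4: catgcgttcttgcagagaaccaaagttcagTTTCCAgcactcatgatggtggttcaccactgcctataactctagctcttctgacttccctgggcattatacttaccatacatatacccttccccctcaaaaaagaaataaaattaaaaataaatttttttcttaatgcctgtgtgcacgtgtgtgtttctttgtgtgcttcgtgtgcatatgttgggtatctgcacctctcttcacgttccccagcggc
Tnfrsf18: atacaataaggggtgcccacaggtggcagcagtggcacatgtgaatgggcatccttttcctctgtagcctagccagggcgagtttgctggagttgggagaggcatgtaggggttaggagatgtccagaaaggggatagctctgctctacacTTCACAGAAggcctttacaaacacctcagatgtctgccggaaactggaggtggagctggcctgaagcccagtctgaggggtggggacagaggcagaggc
In Foxp3 the NFAT and STAT matches overlap, 140 and 139 bases before the start. The window of the other Foxp3 start site in the table, chrX:7579426-7579675, held no match to any of the motifs. Ctla4 and Tnfrsf4 held 1 NFAT match each. Il2ra held overlapping kappaB matches that began 201 bases (found on both strands) and 200 bases before the start. Tnfrsf18 held the palindromic STAT match, found on both strands. Of 32851 promoter windows of this length, 18.6% held the NFAT core, 7.02% the STAT site and 7.25% the kappaB site. A forkhead site (TGTTTAC), the kind Foxp3 binds, was in 3.17% of windows and in none of the 8 windows of the 7 members with an entry. A match is only a description of letters. Ikzf2, Icos and Lag3 have no entry. In the GENCODE annotation of mm10, Tnfrsf4 and Tnfrsf18 lie 9551 bases apart on chromosome 4, and Ctla4 and Icos lie 62094 bases apart on chromosome 1.

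Foxp3, the defining factor of regulatory T cells, gave at least 1 UMI in 419 of 4550 T cells (9.21%). The share was 2.63% in the uninjured library, where it rests on 1 of 38 cells (exact binomial 95% interval 0.0666% to 13.8%). In the frozen DSS libraries it was 5.17% (day 6, 3 of 58 cells), 9.92% (day 9), 9.36% (day 12), 6.86% (day 16), 6.38% (day 19) and 9.57% (day 23), and in batch C 9.62% (day 7), 14.9% (day 11) and 7.86% (day 18). Day 11 stood highest, and its interval of 11.8% to 18.3% overlapped those of days 6, 7, 9, 12 and 23. In the Il10-/- library the share was 9.10% (120 of 1318 cells), inside the DSS range. Intervals and floors cover counting error only. The free-RNA background was far lower: a Foxp3 UMI was in 23 of 12457 epithelial cells at a median of 6019 UMIs, against a median of 2432 in T cells. With each cell thinned to 1000 UMIs, which left out 17 to 105 cells per DSS library, the DSS shares were 3.25% (day 7) to 6.26% (day 23), and day 11 was at 4.54%. Of the 419 Foxp3-positive cells, 240 held a single Foxp3 UMI.

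No relation of the Foxp3-positive share of all T cells to day was detected over the 9 DSS libraries (Spearman's rho −0.15, exact permutation p = 0.708; Pearson's r −0.108, exact permutation p = 0.795; two-sided, 2 relations tested, adjusted p = 0.708 and 0.795). Without days 19 and 23, the days farthest from the median, r was −0.0453. The sign changed with thinning: at 1000 UMIs, rho was 0.63 (exact permutation p = 0.0760) and r was 0.60. That setting also left out the cells below 1000 UMIs. At 500 UMIs, which left out at most 1 cell per DSS library, rho was 0.22 and r was 0.18. The parts of depth and of the cells left out were not tested. In the 6 frozen DSS libraries alone rho was 0.20 and r was 0.22, and batch C holds only 3. Outside cluster 25, where 8 DSS libraries held enough cells, rho was −0.67 (exact permutation p = 0.0831) and r was −0.47 (exact permutation p = 0.239), and without days 7 and 23 r was −0.78; these cells were chosen after seeing the data.

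Among T cells with a Cd4 UMI, the helper lineage to which most regulatory T cells belong, the Foxp3-positive share was lower on later days. It was 52.5% (31 of 59 cells), 38.9%, 33.3% (49 of 147 cells) and 22.4% on days 7, 9, 11 and 12, and 8.14% (7 of 86 cells), 18.2%, 3.80% (3 of 79 cells) and 11.8% on days 16, 18, 19 and 23. In the Il10-/- library it was 11.2% (42 of 374 cells). Day 6 and the uninjured library had 4 and 3 such cells and were left out. Over these 8 DSS libraries rho was −0.88 (exact permutation p = 0.00724, adjusted p = 0.0145) and r was −0.87 (exact permutation p = 0.00543, adjusted p = 0.0109), and without days 7 and 23 r was −0.90 (exact permutation p = 0.0208). With Foxp3 thinned to 1000 UMIs, the shares ran from 17.1% (day 7) to 2.92% (day 19), with rho −0.86 and r −0.83. The cells were still chosen by a Cd4 UMI at full depth, so this does not control the depth of that choice. Their median depth was 8129 UMIs on day 7 and 2069 on day 19. Without day 7, 9, 11 or 12 in turn, rho was −0.82 each time and its adjusted exact permutation p was 0.0683. Batch C read 52.5%, 33.3% and 18.2% over its 3 days, and batch A read 38.9%, 22.4%, 8.14%, 3.80% and 11.8% over its 5. A correlation was not run within either batch.

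**Figure D1:**
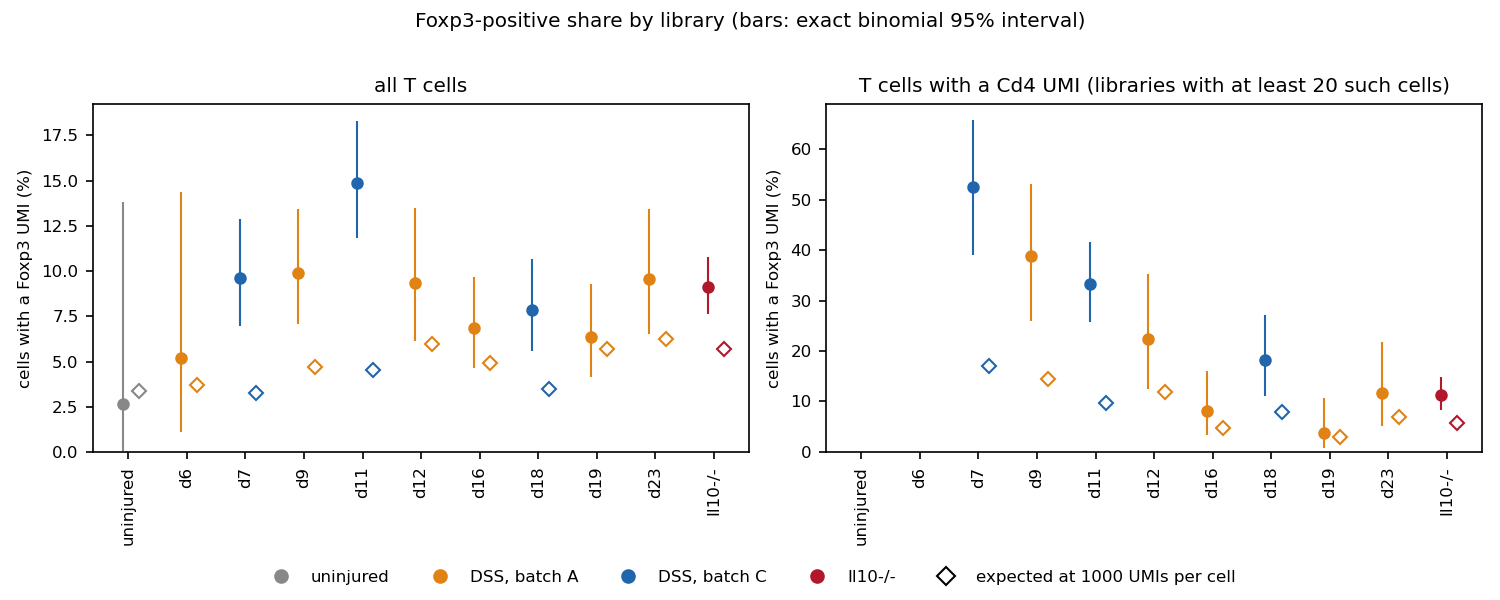
Share of T cells (left) and of T cells with a Cd4 UMI (right) that held a Foxp3 UMI, in percent, for each library; filled points are shares with exact binomial 95% intervals, open diamonds the expected share at 1000 UMIs per cell, and colours the batch label and genotype. On the left the DSS points run from 5.17% to 14.9% with no order by day, and on the right they run from 52.5% on day 7 to 3.80% on day 19.

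The detection of Cd4 itself moved with this result. Among Foxp3-positive cells, 77.5%, 56.8%, 67.1% and 52.0% held a Cd4 UMI on days 7, 9, 11 and 12. On days 16, 18, 19 and 23 it was 24.1%, 48.6%, 12.0% and 27.6%, and 35.0% in the Il10-/- library. Among Foxp3-negative cells it was 7.45% on day 7, 9.82% on day 9 and 18.6% to 23.4% on days 11 to 23. These Cd4 values were looked at after the shares were seen, and their part in the result was not tested. Neutrophil markers in T cells, highest on day 11 and lowest on day 23, also moved with day, and their part was not tested.

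In the summed T cell counts, Foxp3 stood at 46.6, 41.7, 65.8, 40.8, 49.99 and 65.2 CPM in the frozen DSS libraries (days 6, 9, 12, 16, 19 and 23) and at 54.2, 55.3 and 32.0 CPM in batch C (days 7, 11 and 18). It was at 17.8 CPM in the uninjured library, from 1 count, and 58.9 CPM in the Il10-/- library. Over all 11 libraries it had 815 counts in T cells. The highest and lowest DSS libraries, days 12 and 18, differed 2.05-fold. Its partner Ikzf2 was at 1189, 401, 522, 867, 895 and 727 CPM in the frozen DSS libraries and at 315, 285 and 410 CPM in batch C, in the same order of days, with 907 in the uninjured and 620 in the Il10-/- library. It was highest where cluster 25 made up most T cells (day 6 and the uninjured library), and pooled over libraries it stood at 1014 CPM in cluster 25 and 316 in cluster 20. Il2ra ranged from 131 (day 18) to 350 CPM (day 6) in the DSS libraries, with 124 in the uninjured and 147 in the Il10-/- library.

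Of the costimulatory receptors, Tnfrsf4 was at 443, 336, 317, 551, 614 and 848 CPM in the frozen DSS libraries (days 6, 9, 12, 16, 19 and 23) and at 242, 393 and 318 CPM in batch C (days 7, 11 and 18). The ranges of the batch labels overlapped, and day 23 stood highest. The uninjured library was at 231 CPM. Tnfrsf18 ranged from 213 (day 18) to 507 CPM (day 23), with 551 in the uninjured library from 31 counts. Icos ranged from 291 (day 6) to 651 CPM (day 19), with 213 in the uninjured library from 12 counts.

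Of the inhibitory receptors, Ctla4 ranged from 322 (day 18) to 623 CPM (day 23), with 267 in the uninjured library. Lag3, which binds MHC class II, was at 25.6 to 37.5 CPM on the 3 batch C days and at 69.7 to 139 CPM in the 6 other DSS libraries, so the batch labels did not overlap. How many of all genes separated the batch labels in this way was not counted, so the separation is not a result about Lag3. It had no count in the uninjured T cells, which allows up to 53.3 CPM. Pdcd1 was at 78.4 to 106 CPM in batch C and at 36.6 to 81.6 CPM in the other DSS libraries, and at 213 CPM in the uninjured library from 12 counts in 2 cells. Tigit, a receptor for Pvr, had 63 counts in all T cells together and 1 to 11 per DSS library, too few to compare days.

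**Figure D2:**
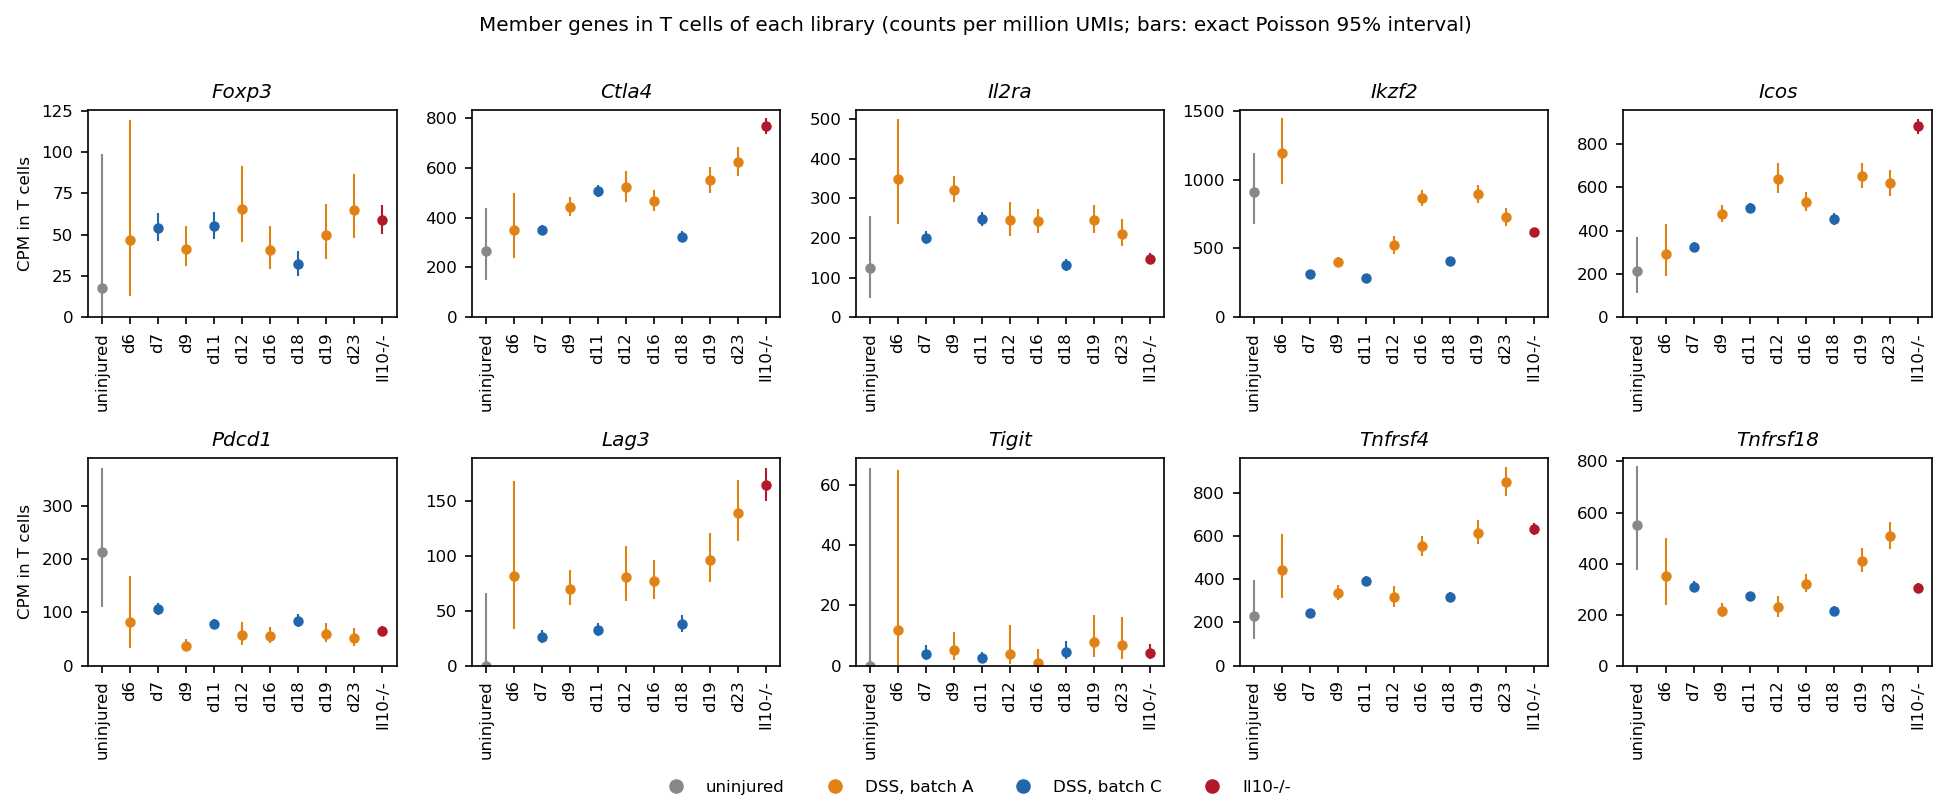
CPM of each gene in the T cells of each library, with exact Poisson 95% intervals that cover counting error only; each panel has its own axis from 0, and colours give the batch label and genotype. Lag3 in batch C (25.6 to 37.5 CPM) lies below the other DSS libraries, a separation that was not counted over all genes. Ctla4, Icos and Lag3 in the Il10-/- library lie above the 9 DSS points.

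No member passed the test of a day trend, a comparison that asks how these genes changed from injury into recovery. The edgeR quasi-likelihood model with day and batch label called 17 of 7848 genes (0.217%) at an adjusted p under 0.05 and 0 of the 9 members tested, while Tigit was too sparse to test. Tnfrsf4 came nearest, with a log2 change of 0.65 ± 0.16 (SE) per 10 days (edgeR adjusted p = 0.0917), and 4 members had an unadjusted p under 0.05, against 755 of all genes. The others of the 4 were Lag3 (0.52 ± 0.15, edgeR adjusted p = 0.184), Il2ra (−0.46 ± 0.15, 0.236) and Icos (0.40 ± 0.17, 0.415). Tnfrsf4 passed in 4 of 16 alternative settings, with an edgeR or DESeq2 adjusted p from 0.00582 to 0.511 over all of them: DESeq2 (0.0296), the batch A libraries alone (0.77 per 10 days, 0.0256), no filter on low counts (0.00582) and without day 11 (0.0140). DESeq2 called 76 genes (0.968%), 1 of them a member. The median slope was 0.23 over the members and 0.02 over all genes tested.

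Foxp3 had a slope of −0.12 ± 0.21 per 10 days (edgeR adjusted p = 0.968), which turned positive without the batch term (0.01), without day 18 (0.21) and in the batch A libraries (0.22). Ctla4, Ikzf2, Pdcd1 and Tnfrsf18 had slopes of 0.23, 0.17, −0.05 and 0.34, with edgeR adjusted p from 0.635 to 1. Single libraries moved these slopes: Ikzf2 was at 0.55 without day 6 and 0.013 without day 9, Ctla4 at 0.094 without day 6 and 0.42 without day 18, and Tnfrsf18 at 0.12 without day 23 and 0.59 without day 18. Without cluster 25 the Ikzf2 slope was 0.53 (edgeR adjusted p = 0.442). None of 31 regulatory T cell effector and tissue genes, 14 other checkpoint genes and 6 ligand genes tested passed, and of 31 T cell subset markers 1 did, Cd3g, a chain of the T cell receptor complex (0.76 ± 0.14 per 10 days, edgeR adjusted p = 0.00860). The model with a slope of its own for batch C called 6 of 8375 genes (0.0716%) and no member by edgeR, with 2 members under an unadjusted p of 0.05, against 367 of all genes. Of these members, Tnfrsf18 differed by −1.16 ± 0.34 per 10 days (edgeR adjusted p = 0.538) and Foxp3 by −0.97 ± 0.41 (1).

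The other comparison asks what marks the cells in which Foxp3 was captured. Most members were higher in T cells with a Foxp3 UMI than in T cells without one from the same library. In 9 libraries (days 7 to 23 and Il10-/-) that held 25 to 120 Foxp3-positive cells, 7 of 9 members tested were higher (5.33% of all 8032 genes were) and 1 was lower (10.8% of all genes were), and Tigit did not pass. The median log2 difference of the members was 1.21, against −0.06 over all genes. Median UMI counts were 1493 to 10311 in the positive and 1584 to 5597 in the negative cells. On day 7 they were 10311 and 5249.

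Tnfrsf4 (OX40) was at 1026 (lowest), 1602 (median) and 3168 CPM (highest) in the Foxp3-positive cells of the 9 libraries and at 46.8, 227 and 534 CPM in the negative cells. The groups did not overlap. The log2 difference was 2.58 ± 0.37 (SE, n = 9 pairs, edgeR adjusted p = 0.00123), a 5.99-fold difference, and it was higher in 9 of 9 libraries and passed in all 17 alternatives. It was detected in 72.0% to 96.6% of positive and 8.24% to 29.2% of negative cells.

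Ctla4, the inhibitory receptor for Cd80 and Cd86, was at 1177, 1480 and 2143 CPM in Foxp3-positive and 125, 381 and 684 CPM in negative cells. It did not overlap either. The log2 difference was 2.02 ± 0.30 (edgeR adjusted p = 0.00173), higher in 9 of 9 libraries. Tnfrsf18 (GITR) was at 424, 916 and 1433 against 151, 217 and 381 CPM, without overlap, and differed by 1.43 ± 0.16 (edgeR adjusted p = 2.83e-07). Il2ra was at 308, 545 and 723 against 89.9, 184 and 292 CPM, without overlap, and differed by 1.21 ± 0.16 (edgeR adjusted p = 5.03e-07). Among other genes looked at, Maf, Izumo1r and Capg were also higher without overlap. How many of all genes did not overlap was not counted.

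Lag3, Icos and Ikzf2 rose with groups that overlapped across libraries. Lag3 was at 78.1, 136 and 294 against 11.1, 66.3 and 146 CPM, higher in 9 of 9 libraries (1.26 ± 0.24, edgeR adjusted p = 9.09e-04). Icos was at 605, 1161 and 1338 against 246, 484 and 845 CPM, higher in 9 of 9 (0.84 ± 0.15, edgeR adjusted p = 1.98e-04). Ikzf2 was at 341, 952 and 1503 against 271, 508 and 844 CPM, higher in 8 of 9 (0.57 ± 0.14, edgeR adjusted p = 0.00553).

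Pdcd1 (PD-1) was the member whose summed level fell. It was at 15.1, 42.4 and 105 CPM in Foxp3-positive and 38.2, 62.1 and 122 CPM in negative cells, lower in 7 of 9 libraries (−1.04 ± 0.23, edgeR adjusted p = 8.87e-04). Days 19 and 23 went the other way. Tigit was at 0, 5.65 and 26.0 against 1.04, 3.83 and 6.95 CPM (1.01 ± 0.55, edgeR adjusted p = 0.233).

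**Figure D3:**
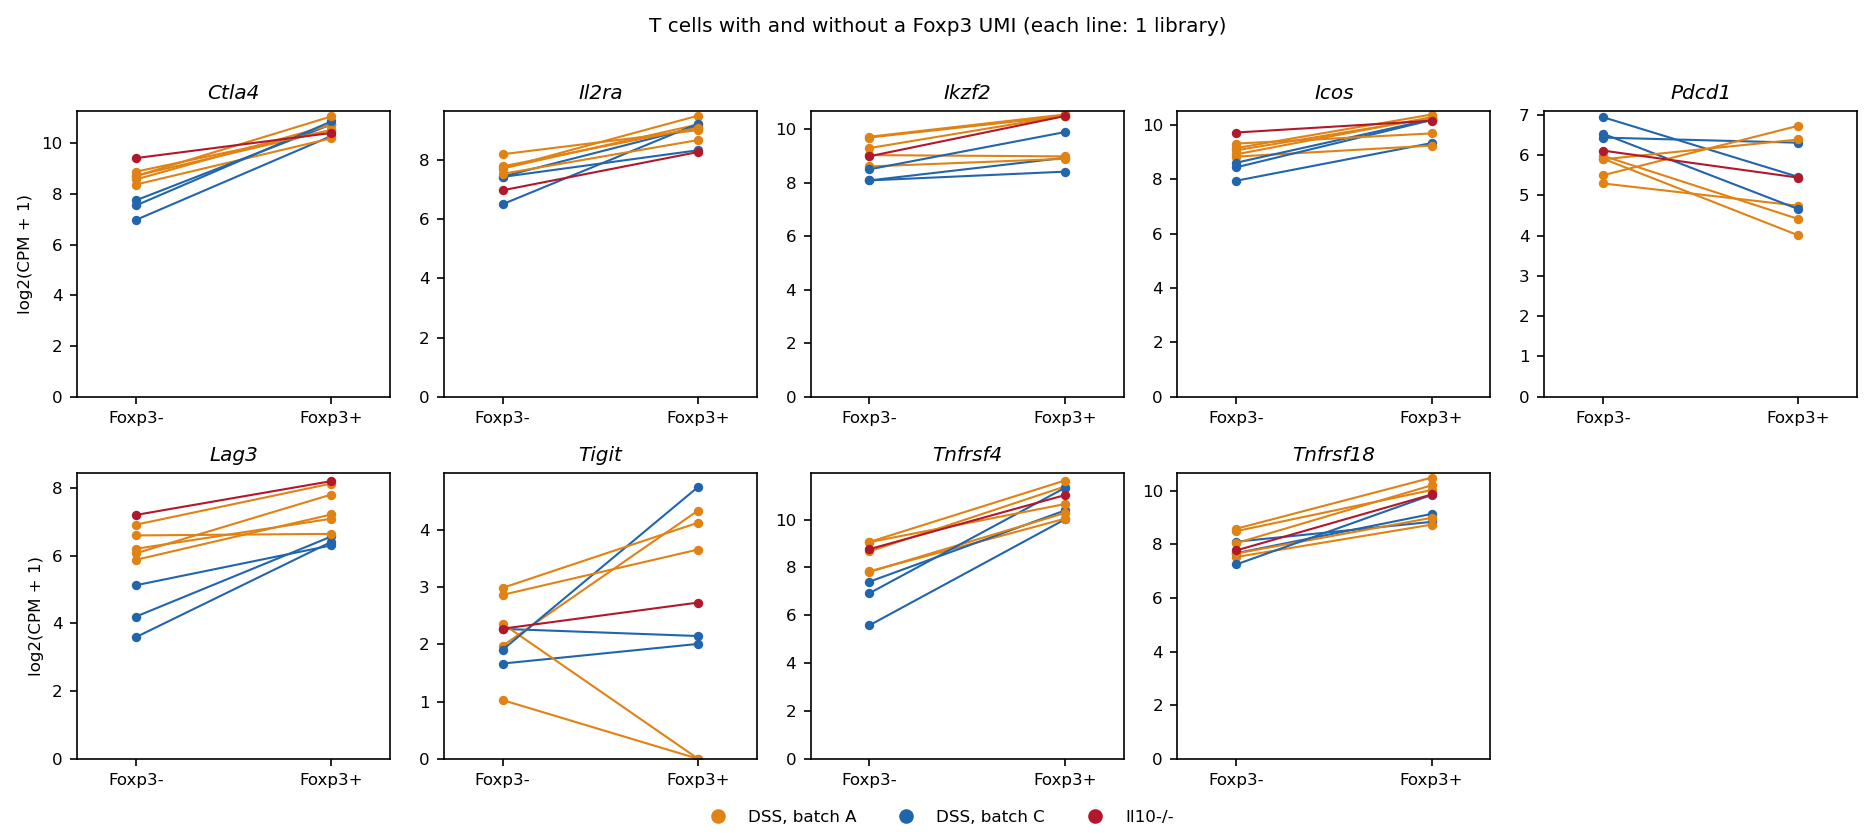
Level of the 9 other genes, as log2(CPM + 1), in T cells without (left) and with (right) a Foxp3 UMI; each line joins the 2 sums of 1 of 9 libraries. Tnfrsf4, Ctla4, Tnfrsf18 and Il2ra rise in every library without overlap, and Pdcd1 falls in 7 of 9.

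Restricting the cells compared moved some of these values. Within cluster 20 alone, without the cluster that held natural killer genes, Ikzf2 differed by 1.72 (edgeR adjusted p = 5.71e-07), against 0.57 in all T cells, and Il2ra by 0.96 (0.0532). Within T cells with a Cd4 UMI, which left 6 libraries, Ikzf2 differed by 1.81 (edgeR adjusted p = 0.0121), Tnfrsf4 by 1.71 (0.00529) and Lag3 by 1.50 (0.00143), so 3 of 7 members rose, as did 2.24% of all genes tested. There Ctla4 (1.48, 0.0917), Tnfrsf18 (1.27, 0.0710), Icos (0.49, 0.162) and Il2ra (1.27, 0.404) did not pass, and Pdcd1 was not tested. With each cell thinned to 1000 UMIs, which shifted the median of all genes by −0.14, 6 of 8 members rose (1.87% of 2988 genes did), and Lag3 (0.58, 0.361) and Pdcd1 (−0.42, 0.714) did not pass. The share of calls that were higher went from 33.1% to 16.1%. DESeq2 gave 7 of 9 members higher (5.19% of all genes were) and none lower (7.94% were), with Pdcd1 at an adjusted p of 0.0504. Over all alternatives the edgeR or DESeq2 adjusted p ran from 7.20e-18 to 0.404 for Il2ra, 1.08e-06 to 0.714 for Pdcd1, 8.49e-12 to 0.361 for Lag3 and 5.71e-07 to 0.233 for Ikzf2. It ran from 3.83e-17 to 0.0917 for Ctla4, 6.51e-29 to 0.0710 for Tnfrsf18, 7.91e-11 to 0.162 for Icos and 2.78e-26 to 0.00529 for Tnfrsf4.

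Cell by cell, a Foxp3-positive T cell held UMIs of a median of 5 of the 9 other members, and 83.3% held at least 4. A Foxp3-negative T cell held a median of 2, and 22.7% held at least 4. The median depths were 3052 and 2386 UMIs. Of the 419 Foxp3-positive cells, 352 were in cluster 20, 29 in cluster 25 and 38 in the proliferating cluster 43. A Cd3 UMI was found in 92.6% of them and a Cd8a or Cd8b1 UMI in 5.97%.

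The gene lists were chosen with earlier results of these data known, so their counts are a description only. Of 33 effector and tissue genes known from regulatory T cells, 23 passed upwards (5.33% of all genes did) and 0 downwards (10.8% did). Their median log2 difference was 1.21 (−0.06 over all genes). The greatest were Il10, the suppressive cytokine (2.81 ± 0.63, edgeR adjusted p = 0.0157), Itgb8, an integrin chain that activates TGF-beta (2.73), Lrrc32, which anchors it on the cell surface (2.55), and Izumo1r, the folate receptor of regulatory T cells (2.48). Of 14 other checkpoint genes 5 rose and 4 fell: Tnfrsf9 rose by 1.62, and Cd160, Cd96 and Cd226, receptors also held by natural killer cells, fell by 5.30, 2.49 and 1.64. Of 5 ligand genes, Il2 and Lgals3 fell by 2.34 and 0.75 (edgeR adjusted p = 9.69e-05 and 2.64e-05) and none rose. Of 31 T cell subset markers 19 fell and 1, Trac, rose. The greatest falls were those of Klrd1, Ncr1, Il13 and Klrb1c, genes of natural killer cells and innate lymphocytes. Of the 4131 Foxp3-negative cells of all 11 libraries, 1687 were in cluster 25.

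The genes most like Foxp3, by the log2 difference over the 9 libraries, were Gbp2b (3.30), Prg4 (3.24), Ankrd55 (2.89), Il10 (2.81), Ncmap (2.76), Itgb8 (2.73), Rapsn (2.68) and Fabp5 (2.62). Gbp2b, Il10, Itgb8 and Fabp5 were higher in 9 of 9 libraries, Ankrd55 and Rapsn in 8, Ncmap in 7 and Prg4 in 6. The 9 include the Il10-/- library, where Il10 was at 130 CPM in positive and 105 CPM in negative cells. Fabp5, a fatty acid binding protein, was at 268, 512 and 1002 CPM (lowest, median and highest) in positive and 37.6, 75.6 and 177 CPM in negative cells, without overlap. The genes lowest in positive cells were Xcl1, Klra7, Klre1, Ccl1, Klra4 and Klra8, most of them receptors or chemokines of natural killer cells. Xcl1, with 1 count in positive cells, was 963-fold lower (counting interval 173 to 38038). The other 5 had no count there and, against a floor of 3 counts over the positive cells, were at least 13.4-fold (Klra8) to at least 63.0-fold (Ccl1) lower.

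The members were also compared between lineages, a split that did not use Foxp3. In 9 libraries, T cells with a Cd4 UMI and no Cd8a or Cd8b1 UMI (987 cells) were compared with T cells with a Cd8a or Cd8b1 UMI and no Cd4 UMI (653 cells). Of 9 members tested, 6 were higher in the Cd4 class (7.42% of all 4998 genes were) and 1, Ikzf2, was lower (8.7% of all genes were). The median log2 difference of the members was 1.64, against −0.02 over all genes.

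Foxp3 was at 27.9, 83.8 and 190 CPM (lowest, median and highest library) in the Cd4 class and at 0, 8.01 and 50.3 CPM in the Cd8 class, higher in 8 of 9 libraries (3.24 ± 0.44, edgeR adjusted p = 1.57e-04). The groups overlapped through day 23, where the classes stood at 49.6 and 50.3 CPM. Tnfrsf4 was at 560, 737 and 1085 against 9.56, 55.0 and 575 CPM, higher in 9 of 9 (3.05 ± 0.56, edgeR adjusted p = 0.00532). Ctla4 was at 569, 848 and 1049 against 31.0, 137 and 330 CPM, without overlap (2.27 ± 0.38, edgeR adjusted p = 0.00314).

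Icos, without overlap, differed by 1.64 ± 0.22 (edgeR adjusted p = 3.65e-04), Il2ra by 1.72 ± 0.18 (1.70e-06) and Tnfrsf18 by 0.98 ± 0.13 (3.76e-06), each higher in 9 of 9 libraries. Pdcd1 (−0.37 ± 0.23, edgeR adjusted p = 0.327) and Lag3 (−0.01 ± 0.28, 0.996) did not pass, which does not show that the classes hold them alike. Ikzf2 was at 162, 234 and 463 CPM in the Cd4 class and at 299, 663 and 988 in the Cd8 class, lower in 8 of 9 libraries (−1.40 ± 0.15, edgeR adjusted p = 2.76e-06). Within cluster 20 alone the Ikzf2 difference was 0.09 (edgeR adjusted p = 0.923; 14 of 15 alternatives passed, from 2.67e-29 to 0.923). The 6 members that rose also passed within cluster 20, where 6.64% of all genes were higher.

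**Figure D4:**
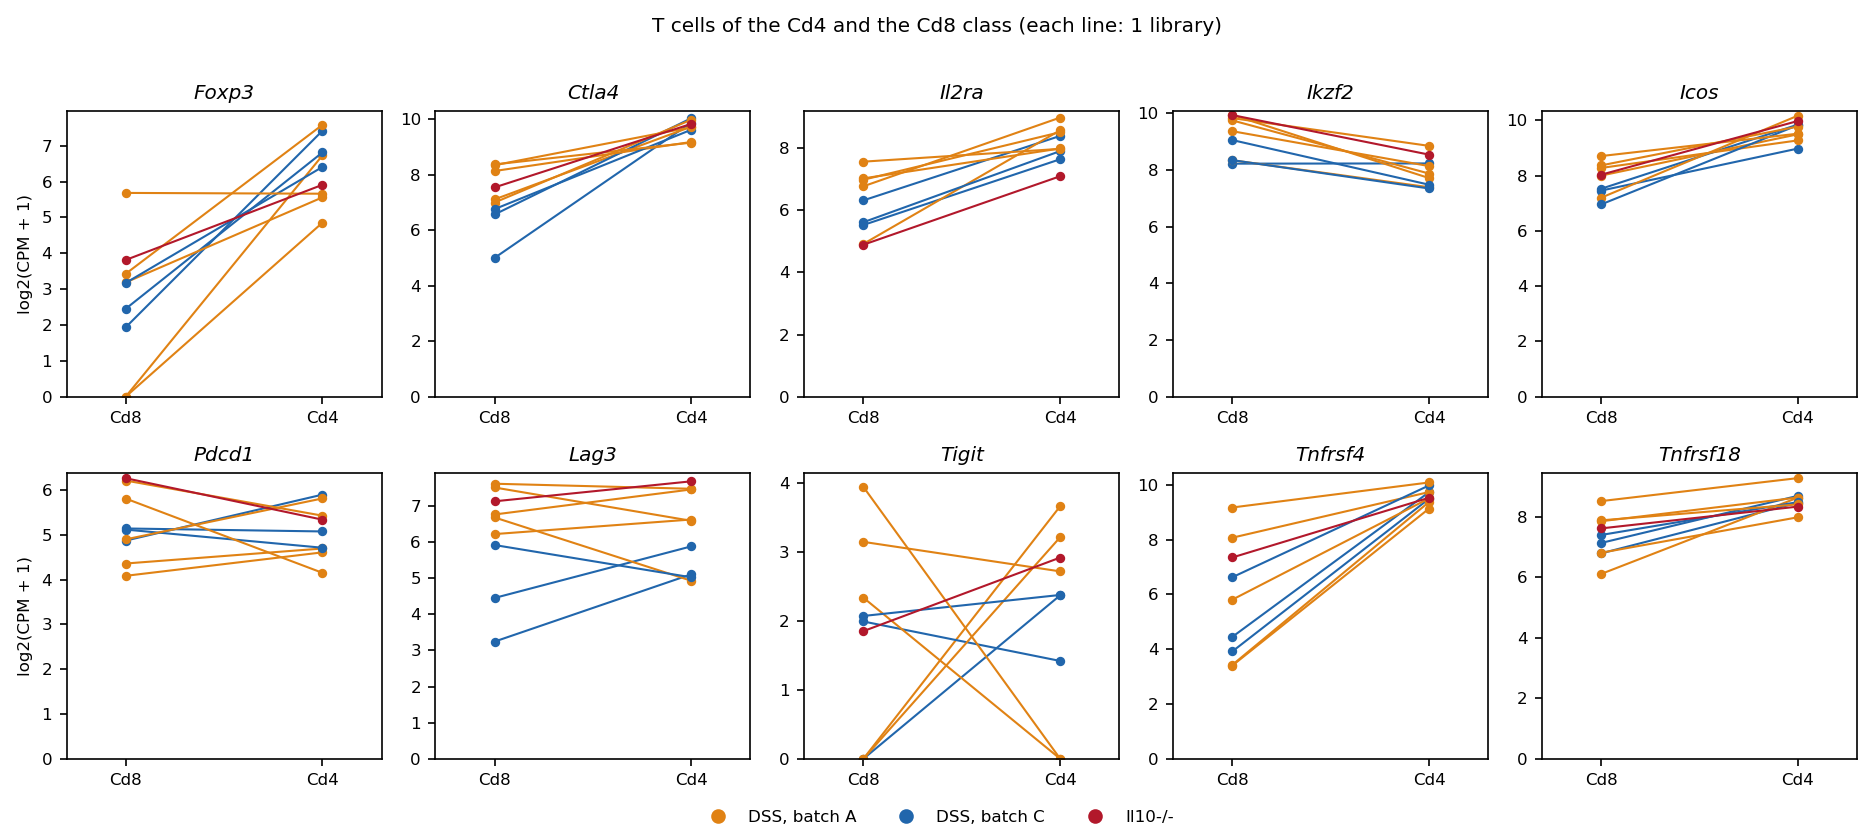
Level of the 10 genes, as log2(CPM + 1), in T cells of the Cd8 class (left) and of the Cd4 class (right); each line joins the 2 sums of 1 of 9 libraries. Tnfrsf4, Ctla4, Icos, Il2ra and Tnfrsf18 rise in 9 of 9 libraries, Foxp3 in 8, and Ikzf2 falls in 8.

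Of 25 regulatory T cell effector and tissue genes tested in this split, 18 were higher in the Cd4 class (7.42% of all genes were). The 1 that was lower (8.7% of all genes were) was Itgae (−1.55), an integrin chain of intraepithelial lymphocytes. The greatest rises were those of Maf (3.46), Ccr6 (2.79) and Areg (2.77). Of 13 other checkpoint genes, 5 were higher and 3 lower, with Cd5 at 1.89 and Cd160 at −4.19.

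Other T cells held some members without Foxp3. Of 485 T cells with a Trdc UMI (the gamma-delta receptor) and none of Cd4 or Cd8, 40.2% held a Pdcd1 UMI, against 10.2% of the Cd4 and 8.33% of the Cd8 class. Their Pdcd1 level was 229 CPM, against 38.0 and 39.9. In the same cells Foxp3 was in 0.412% and Tnfrsf4 in 2.06%, while Il2ra was in 40.6%. These are pooled shares at median depths of 3353, 3039 and 3709 UMIs, given with no test. Over 9 libraries the Pdcd1 share ran from 11.1% to 63.1% in the Trdc cells. It ran from 3.51% to 25.9% in the Cd4 and from 5.13% to 12.0% in the Cd8 class, so the ranges overlapped.

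The Il10-/- T cells, 1 library with no replicate, were set against the range of the 9 DSS libraries, and no test is possible. Il10 itself was at 108 CPM in the Il10-/- T cells, against 0 to 203 CPM in the DSS libraries; the method reads 3′ ends and the labels do not give which bases the allele lacks, so these counts do not check the genotype. Ctla4 was at 765 CPM (interval 734 to 797), above the highest DSS library (623). Icos was at 880 CPM (interval 847 to 915), against at most 651. Lag3 was at 164 CPM (interval 150 to 179) against at most 139 on day 23, whose interval of 113 to 169 CPM overlapped it. Thus 3 of 10 members lay above all 9 DSS libraries, as did 4% of 11645 genes, and 0 lay below, as did 5.59% of genes. Foxp3 (58.9), Tnfrsf4 (630), Tnfrsf18 (302), Ikzf2 (620), Il2ra (147), Pdcd1 (65.0) and Tigit (4.06 CPM) lay within. Among T cells with a Cd3 UMI the same 3 lay above and Il2ra lay below. In the Cd4 class alone, Ctla4 (910 CPM) and Icos (1008) lay inside the range of DSS days 7 to 23. That range was 569 to 1049 CPM for Ctla4 and 504 to 1151 for Icos. Lag3 lay above it there (203 against at most 176 CPM). Cd4 itself was at 207 CPM in the Il10-/- T cells, against at most 165 in the DSS libraries, and its part was not tested.

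Across the authors' cell classes, 9 of the 10 genes had their highest level in T cells. T cells were 8.18% of cells and held 92.1% of Icos, 91.4% of Foxp3, 89.5% of Tnfrsf4, 76.8% of Ctla4, 59.1% of Ikzf2 and 36.7% of Lag3 counts. Lag3 was the exception: it was at 253 CPM in 216 dendritic cells, 63.0% of which held a UMI, and at 71.3 CPM in T cells, with 97.6 CPM in 45 mast cells. In 5 libraries with at least 20 dendritic cells it ranged from 163 to 435 CPM. Ctla4 was at 76.3 CPM in 1468 plasma cells, 43.2% of which held a UMI at a median depth of 12892 UMIs, and ranged from 45.2 to 112 CPM over 9 libraries. Its level in B cells was 8.24 CPM. Ikzf2 was in 20.2% of epithelial cells (27.1 CPM) and in 20 of 45 mast cells. Pdcd1 was in 4.09% of lymphatic cells (11.3 CPM).

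**Figure D5:**
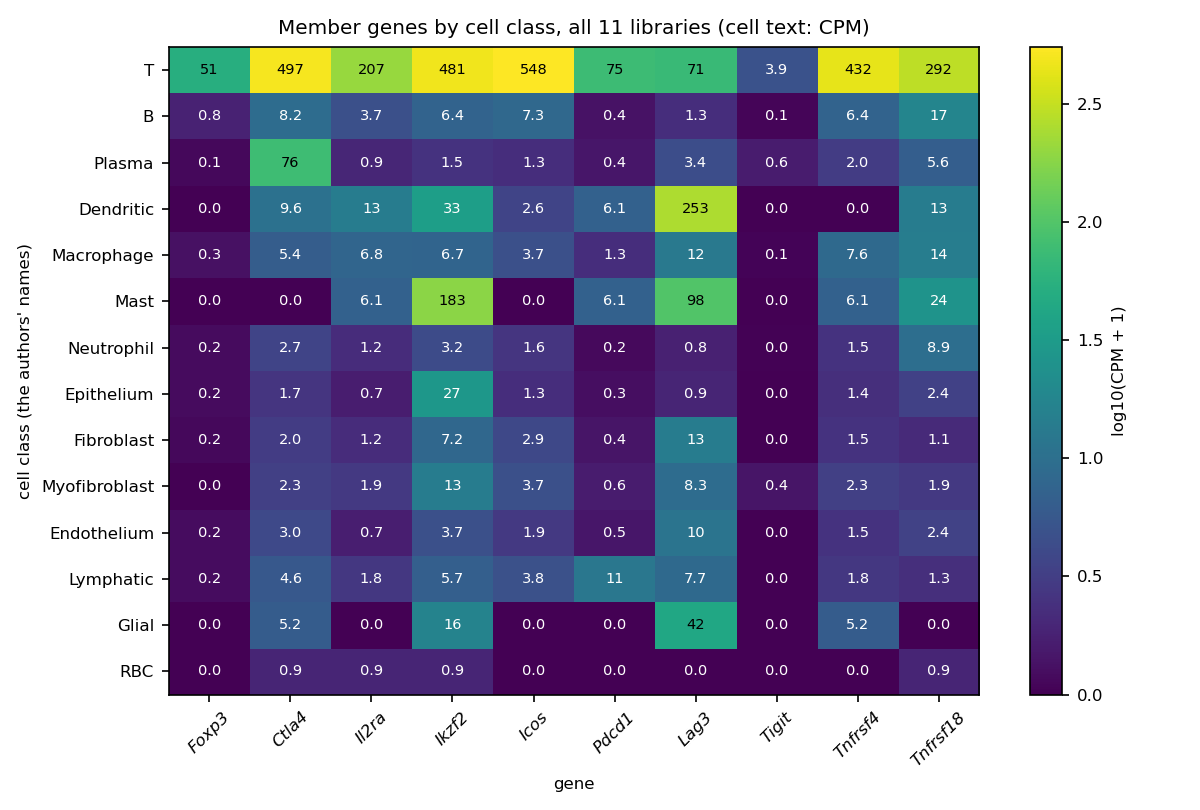
CPM of each gene in each cell class, all 11 libraries pooled; colour gives log10(CPM + 1) and the number in each cell the CPM. The T cell row is highest for all genes but Lag3, which is at 253 CPM in dendritic cells and 71.3 CPM in T cells.

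Their ligands lay mostly in other classes. Cd86 and Cd80, ligands of Ctla4, were highest in macrophages (206 and 93.8 CPM), Cd274, a ligand of Pdcd1, in neutrophils (242) and macrophages (162), Icosl in B cells (54.1), Pvr in endothelium (97.4) and Nectin2, bound by Tigit, in lymphatic cells (438 CPM). Il2 was highest in T cells (14.8 CPM, 237 counts). Pdcd1lg2, also a ligand of Pdcd1, was at 37.2 CPM in T cells (598 counts). Only mast cells stood higher for it (104 CPM, from 17 counts). Tnfsf4 and Tnfsf18, the ligands of Tnfrsf4 and Tnfrsf18, had 113 and 30 counts in all cells together, too few to rank classes.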

How the data were processed

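Single-cell RNA was counted as UMIs in colonic mucosa. The deposited matrix holds UMI counts, not normalized; per the submitters' processing notes the authors used Cell Ranger 3.0.0 and the mm10 build; the cell filter is not given in the sources used here. Library, cluster and cell class came from the authors' deposited cell table. Of 14 libraries in it, 11 matched a sample record and 3 (12621 cells) were not used. The 597 gene rows with a placeholder identity were left out of totals and tests. No doublet caller was run.

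Counts were summed per library over T cells. Tests used edgeR 4.0.16 (R 4.3.3; TMM, filterByExpr, robust quasi-likelihood), with Benjamini-Hochberg adjustment over all genes tested and calls under 0.05; DESeq2 1.42.0 was an alternative. Day trends used the 9 DSS libraries with at least 20 T cells, in units of 10 days, with the batch label as a term. Foxp3-positive means at least 1 UMI. That comparison and the Cd4 against Cd8 comparison took libraries with at least 10 cells per side, with the library as a block, since both sums of a library come from 1 pool; the genes that chose the cells got no test. Shares were tested by exact permutation, and thinned shares are expectations at 1000 or 500 UMIs. Only Foxp3 was thinned in these shares, and cells with a Cd4 UMI were chosen at full depth. Intervals are exact 95% binomial or Poisson intervals, and a count of 0 allows 3 counts. The range against Il10-/- took genes with at least 20 counts. Levels are CPM of all T cell counts (56247 to 3420163 per library); differences are edgeR's log2 values. The tests were run on simulated counts with 200 changed genes. Every gene was given the same dispersion, and pools and batches differed only in total counts. The rates below hold for that setting and need not hold for the real counts. At a log2 effect of 1 (per 10 days for the trend), the trend recovered 44% of them. The Foxp3 comparison recovered 57% and the Cd4 against Cd8 comparison 79.5%. At an effect of 2 the 3 recovered 99%, 86.5% and 94.5%. False calls were 1.24% to 6.16% of calls.

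The genes and lists were chosen with earlier results of these data known. The text names all 10 members, the 2 to 4 greatest calls of each list, and the 8 highest and 6 lowest called genes beside Foxp3 with at least 50 counts. Cells of cluster 20, and T cells without cluster 25, were looked at as alternatives chosen after seeing the data. Promoters are from RefSeq (GRCm38.p6), gene positions from GENCODE vM21.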

Additional observations from a re-analysis of the deposited data

How the results depend on the processing

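Alternatives that left out libraries, changed the scaling, the filter, the test or the cells changed the following values. The count of genes with a day trend, 17, was 76 with DESeq2, 43 in the batch A libraries, 0 by edgeR without the batch term (523 at an unadjusted p under 0.05), 266 without a filter, and 0 to 110 with 1 library left out (0 without day 18, 36 without day 12, 80 without day 7, 110 without day 11). The Foxp3 slope turned to 0.22 in batch A, 0.012 without the batch term and −0.39 to 0.21 with 1 library left out. The Ikzf2 slope was −0.046 in cells with a Cd3 UMI. The Pdcd1 slope was 0.074 there, 0.12 in batch A, and −0.25 to 0.14 with 1 library left out (0.00 without day 18 or day 6). The slope difference by batch label called 48 genes without a filter.

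For the Foxp3-positive share of all T cells, rho was 0.63 and r 0.60 at 1000 UMIs, rho 0.22 and r 0.18 at 500 UMIs, rho 0.20 and r 0.22 in batch A, and rho 0.83 and r 0.80 (exact permutation p = 0.0583 each) in batch A at 1000 UMIs, a setting chosen after seeing the data. The sign stayed negative in cells with a Cd3 UMI (rho −0.13, r −0.28) and outside cluster 25 (rho −0.67, r −0.47). With 1 library left out, rho was −0.64 to −0.05 and r −0.45 to 0.030. Among cells with a Cd4 UMI, rho was −0.96 to −0.82 and r −0.93 to −0.82, where r missed the threshold only without day 7 (adjusted exact permutation p = 0.0552). The correlation among Cd4 cells within batch A, 5 libraries, was not run.

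The Foxp3 comparison called 1293 genes, and 260 in cells with a Cd4 UMI, 757 in cluster 20, 646 with no library block and 348 at 1000 UMIs; without the block Ikzf2 (edgeR adjusted p = 0.233) and Lag3 (0.245) did not pass. The Cd4 against Cd8 comparison called 806, and 468 in cluster 20 and 336 with no library block; Ikzf2 was 0.089 in cluster 20, and Lag3 was 0.081 without a filter and −0.20 to 0.14 with 1 library left out. With TMM effective sizes, 932 genes of Il10-/- T cells lay above and 335 below the DSS range (466 and 651 by total counts), and 1 member lay below in cells with a Cd3 UMI. Between days or genotypes, no paired analysis was possible because each group is 1 library. The Foxp3 and the Cd4 against Cd8 comparisons were paired within their 9 libraries. Depth limits Tigit, the uninjured library and day 6 most.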
